A study of Gallus gallus with 4 samples.

Results

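The limb patterning factors of the chicken tibia were followed in cartilage arrays across tissue and stage. They comprise 75 of the 13009 genes named on the array: HOX genes of the A, B, C and D clusters, T-box genes, the PITX, DLX, MSX, PRRX, ALX, SHOX, TWIST, MEIS, PBX, IRX and LHX families, and SIX3, SIX5 and SIX6. Members were taken by gene symbol alone, from probe sets that the platform annotation gives 1 symbol, and 134 of the 38535 probe sets qualified. Each gene was represented by its brightest probe set, judged by mean log2 intensity over the arrays. One entry, HOXA10-AS, is an antisense transcript next to HOXA10.

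RNA came from the tibia of white leghorn embryos without genetic change or treatment, and many dissected pieces were pooled for each sample, so p-values below do not measure the spread between embryos. Purely transient cartilage (TC), which bone later replaces, served the study as reference. The other dissection (TC+AC) held articular cartilage, which persists at the joint surface, together with some transient cartilage, so it is a mixture and not pure articular tissue. Embryos were at day 12 (E12) or day 14 (E14), which the labels equate with Hamburger-Hamilton stages 38 and 40, with 5 µg of RNA for 1 biotin-labelled array per combination, 4 arrays in all and no replicate.

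HOX genes lie in clusters in which the order of the genes follows their order of use along the body and the limb. Genes of the 5′ end of the A and D clusters pattern the segments of the limb: HOX9 and HOX10 genes act in the upper segment, HOX11 genes in the middle segment that holds the tibia, and HOX13 genes in the foot. PITX1 and TBX4 specify the hindlimb, while TBX5 specifies the forelimb. PBX and MEIS proteins are DNA-binding partners of HOX proteins. PRRX and TWIST proteins mark limb mesenchyme, and DLX and MSX proteins regulate outgrowth and later the maturation of cartilage and bone.

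Most of the factors were dim. Virus genomes have 541 probe sets on the array, and the value under which 95% of them lay was taken as background. Intensities are given after quantile normalization on the linear scale, where background at E12 was 18.9 for TC and 19.1 for TC+AC, and at E14 15.6 and 24.6. Between 35 and 39 of the 75 genes lay above background on an array, against 66.2% to 75.5% of all genes. On all 4 arrays 26 were above background, and 22 were above it on none. In bulk tissue, fewer cells of a type and less RNA per cell cannot be told apart.

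**Figure D1:**
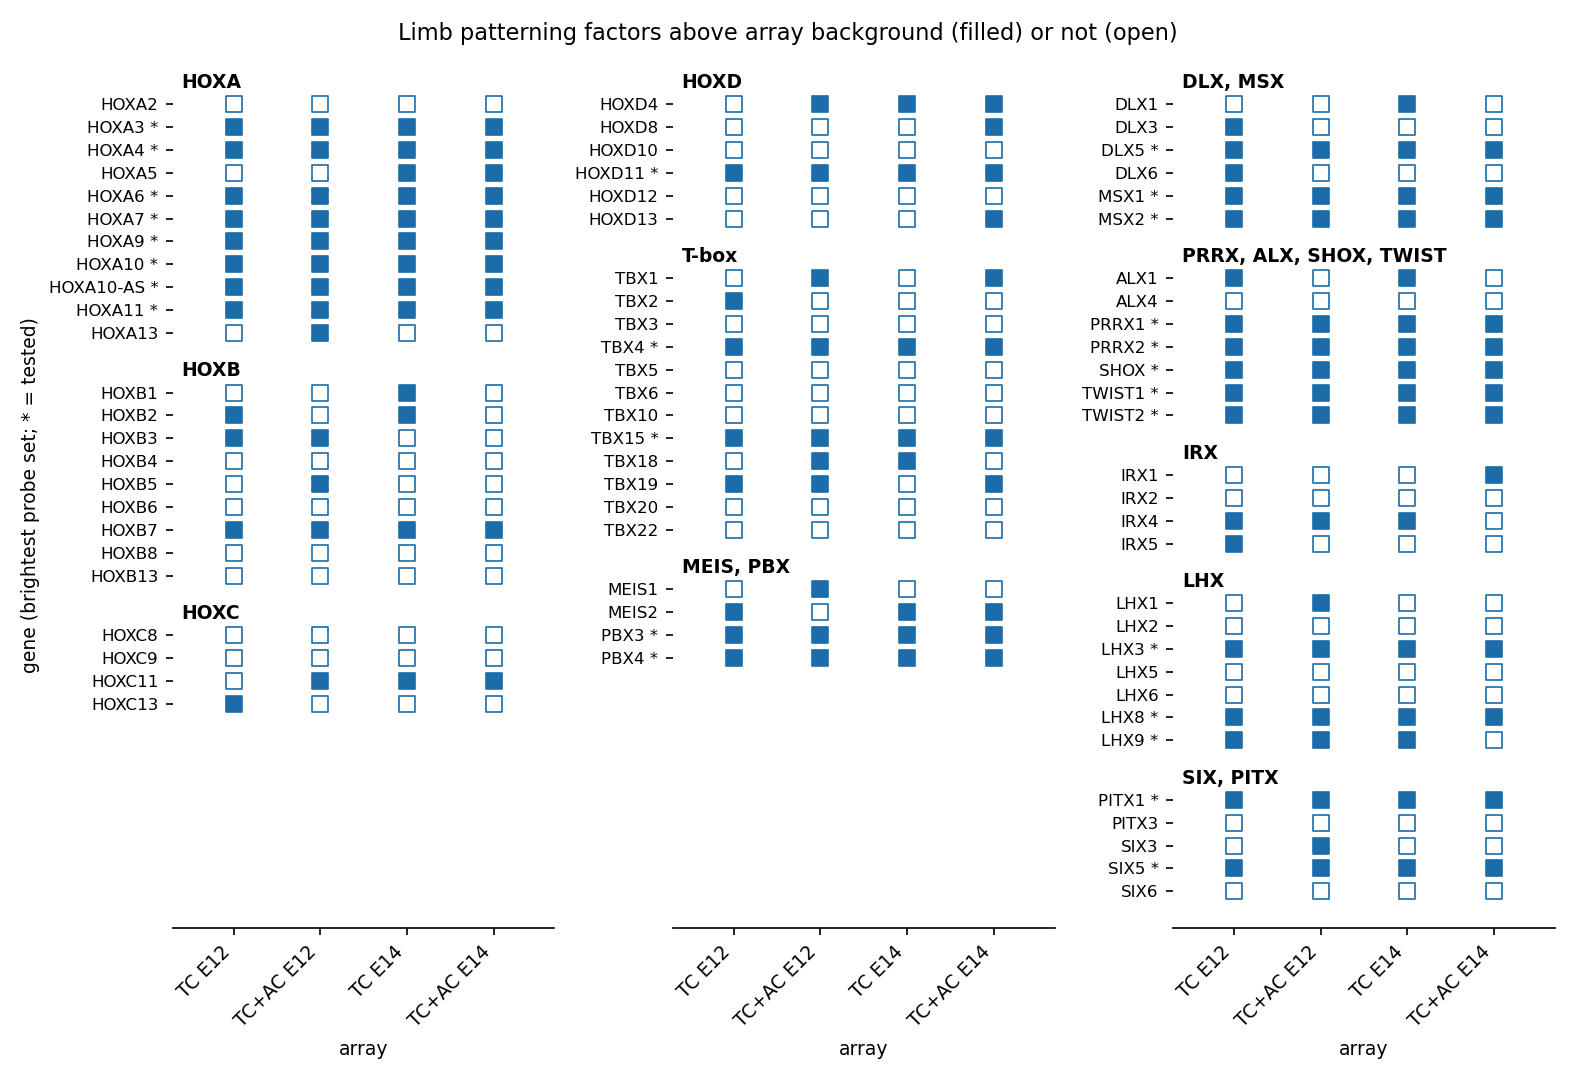
Detection of the 75 factors on the 4 arrays (columns), by gene family (rows); a filled square is a brightest probe set above the array's background, an open one is not, and an asterisk marks the 26 tested genes. The HOXA block from HOXA3 to HOXA11 is filled except for HOXA5 at E12, while most HOXB, HOXC and HOXD rows are open.

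The HOX clusters differed in how many genes were detected. In the HOXA cluster 7 of 10 genes were above background on all 4 arrays, namely HOXA3, HOXA4, HOXA6, HOXA7, HOXA9, HOXA10 and HOXA11, which are neighbours in the cluster apart from HOXA5. HOXA5 was above background in both E14 samples alone, at 16.6 in TC and 38.1 in TC+AC, after 5.78 in TC and 6.58 in TC+AC at E12. E12 before E14 and, within each stage, TC before TC+AC is the order used for every 4 values below. HOXA2, at the anterior end, was above background on no array with its brightest probe set, while its other probe set was above it in TC+AC at E12 (20.3) and TC at E14 (16.3). HOXA13, the most posterior member, was above background on 1 array alone. In the HOXB cluster 1 of 9 genes was detected on all arrays (HOXB7, at 22.6, 34.9, 27.7 and 27.2), in HOXC 0 of 4, and in HOXD 1 of 6 (HOXD11). HOXB4, HOXB6, HOXB8, HOXB13, HOXC8, HOXC9, HOXD10 and HOXD12 were above background on no array. A dim value here says that the probe set gave no signal above background, and levels of different probe sets were not compared.

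Of the limb identity genes, those of the hindlimb were detected. PITX1 read 159, 336, 149 and 263, and TBX4, a T-box gene of the hindlimb, 48.4, 66.1, 59.8 and 42.8, so both were above background in every sample. TBX5, the forelimb counterpart of TBX4, was above background on no array with any of its 3 probe sets, and its brightest one gave 16.4, 8.90, 1.82 and 5.05. The labelled tissue was checked against its markers, and of 14 cartilage genes, such as COL2A1 and SOX9, between 12 and 14 were above background on an array.

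To ask which of the factors distinguish cartilage with an articular part from purely transient cartilage, tissue and stage were fitted as additive terms with limma across 7805 genes, after the dimmest 40% had been left out. This filter removed 49 of the 75 factors, and the 26 that passed are a selection: a gene bright on a single array could pass through that array. Among tested factors SHOX had the lowest mean log2 intensity (5.01), and IRX4 (4.82) was the first one left out. None of the 26 was called for tissue: 0 were higher and 0 lower in TC+AC at an adjusted p of 0.05, where 0.743% of all tested genes were higher and 0.730% lower. At an unadjusted p under 0.05 there were 4 of 26, DLX5, HOXA11, MSX2 and PRRX2, where 13.4% of all tested genes were under it. The adjusted p ran from 0.105 to 0.992 (limma). With standard errors of 0.50 to 0.54 log2 units and 1 residual degree of freedom, these p-values rest mostly on a prior shared across genes. A value that missed the threshold does not show equal levels.

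By size, after quantile normalization, the TC+AC sample was at least 2-fold higher at both stages for 1 of the 26. It was at least 2-fold lower at both for 0. Over all tested genes these shares were 2.49% and 1.40%. The factor that was higher was HOXA11. It read 126 in TC and 367 in TC+AC at E12, and 151 and 350 at E14. Both TC+AC values thus stood above both TC values. The ratio was 2.93-fold at E12 and 2.31-fold at E14 (log2 difference 1.38 ± 0.50 SE, limma adjusted p = 0.174, 4 arrays). Another probe set of HOXA11, above background on all arrays, differed by 1.06 (E12) and 1.70 (E14) on the log2 scale, and the remaining 3 lay below background throughout. With all 5 averaged, dim ones included, the fitted difference was 0.25.

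The other HOX11 genes were HOXC11 and HOXD11. HOXC11, from a cluster whose posterior genes are used in the hindlimb, was too dim for the test and read 3.72, 36.3, 20.7 and 88.4. It was below background in TC at E12. In each stage the TC+AC value was the higher one, after quantile normalization at least 1.93-fold at E12 and 4.27-fold at E14. On the log2 scale the E14 difference was 2.09, against 0.89 as deposited and 0.38 on hybridization controls. A second probe set of HOXC11 was above background in both TC+AC samples (32.5 and 31.2) and in neither TC sample (10.1 and 3.65). A further one was below background throughout. HOXD11 did not share this order. It read 46.2, 35.2, 23.0 and 54.9, and differed by -0.39 (E12) and 1.25 (E14) on the log2 scale. PITX1 had the same order as HOXA11 on its brightest probe set, with both TC+AC samples above both TC samples. The ratio was 2.11-fold at E12 and 1.76-fold at E14 (log2 difference 0.95 ± 0.50 SE, limma adjusted p = 0.415). Its second probe set gave log2 differences of 0.92 and 0.84. That one read 65.05, 123, 137 and 246, so TC at E14 was above TC+AC at E12. From E12 to E14 it changed by 1.08 in TC and 0.998 in TC+AC, against -0.09 and -0.35 on the brightest one.

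**Figure D2:**
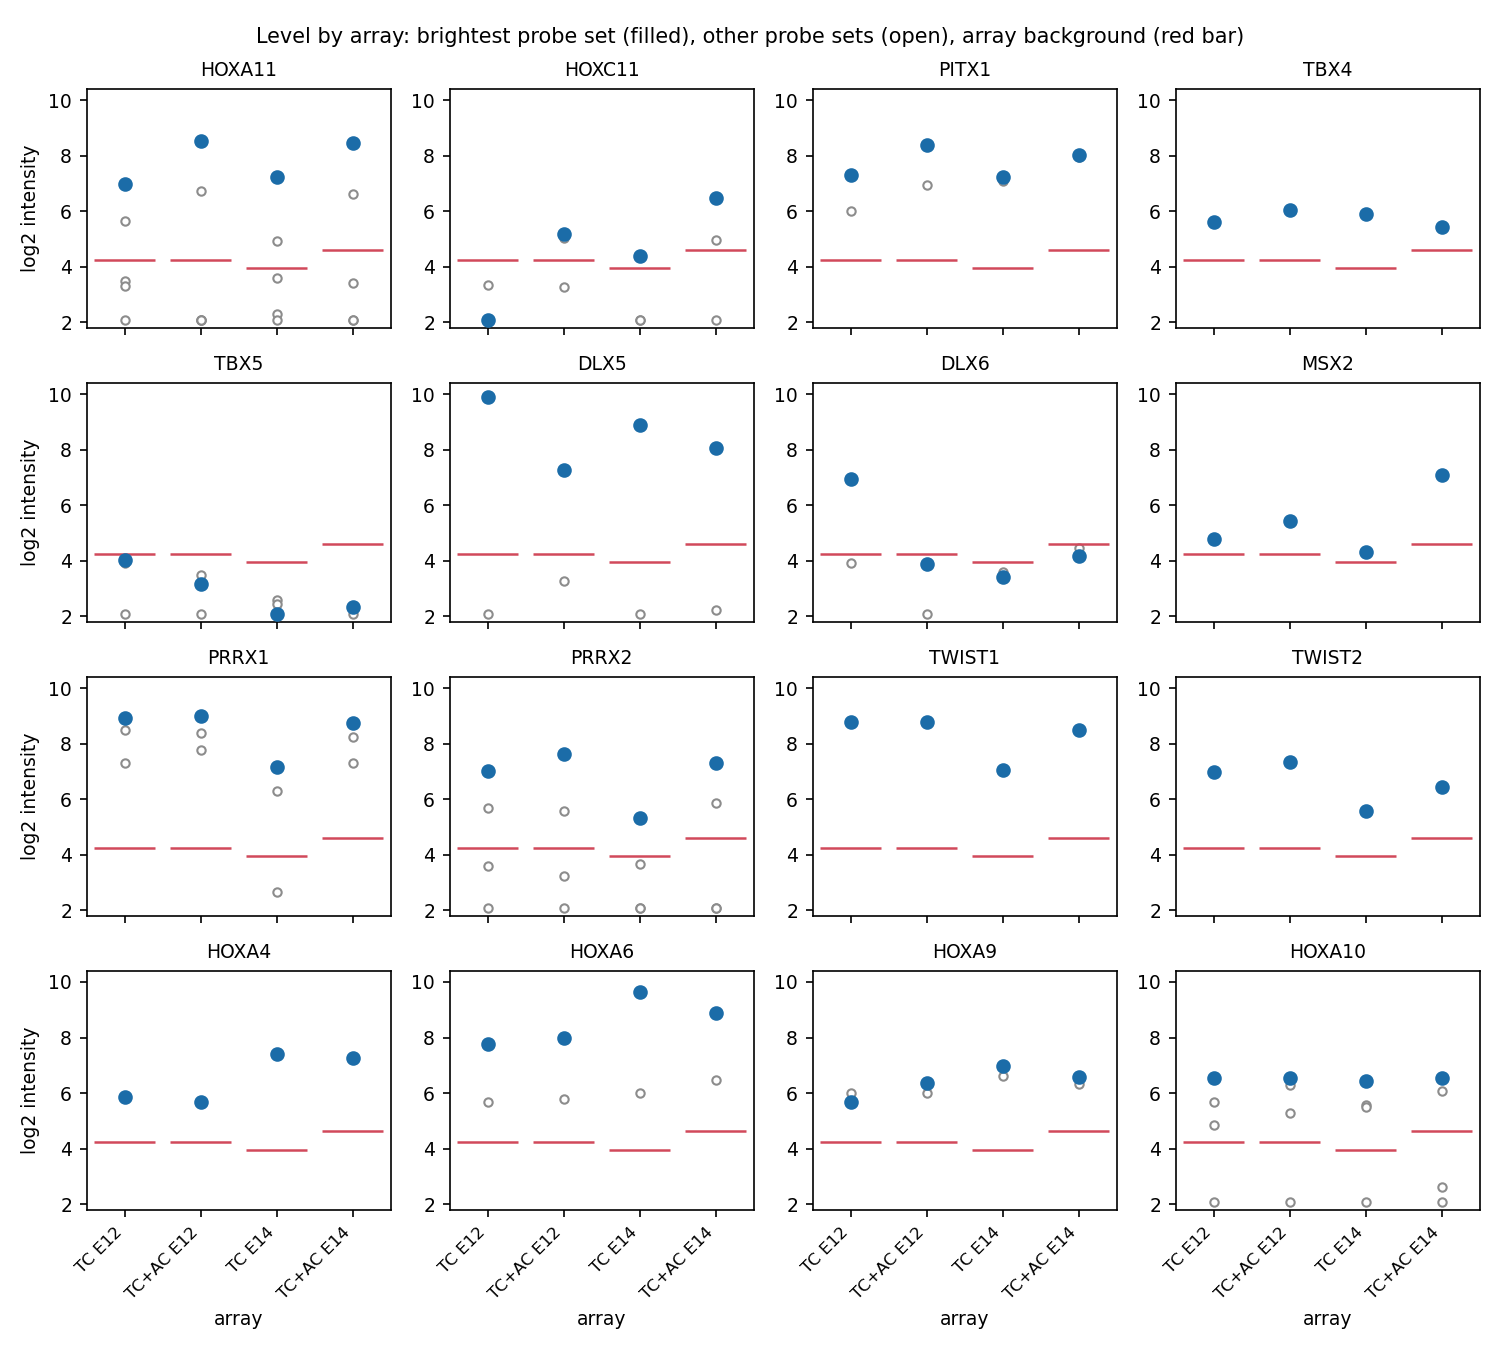
Log2 intensity (y axis) of 16 factors on the 4 arrays (x axis), with filled points for the brightest probe set, open points for the gene's other probe sets and red bars for the background of each array. On the brightest probe sets, HOXA11 and PITX1 are higher on both TC+AC arrays, and DLX5 and DLX6 are highest in TC at E12. PRRX1, PRRX2, TWIST1 and TWIST2 are lowest in TC at E14 on theirs.

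Posterior HOX genes other than HOX11 showed no common order. HOXA9 read 51.4, 82.3, 124 and 95.3, and its tissue differences were 0.68 and -0.38 on the log2 scale. Its other probe set, also above background on all arrays, gave 0.02 and -0.28. HOXA10 lay between 86.0 and 93.7 in all 4 samples on its brightest probe set. Another of its probe sets gave 0.60 and 0.51 on the log2 scale, and a further one was below background in TC+AC at E14 alone (28.6, 39.3, 45.8 and 4.18). HOXA10-AS read 84.2, 118, 80.2 and 194. Which strand each probe set of HOXA10 and HOXA10-AS reads was not analysed here, so their signals may not be separate. HOXA13 was detected in TC+AC at E12 alone (3.35, 44.8, 6.58 and 21.0), which puts it at least 2.38-fold higher there than in TC. HOXD13 was detected in TC+AC at E14 alone (18.3, 17.0, 13.9 and 35.5). HOXC13 was detected in TC at E12 alone (33.4, 7.78, 3.25 and 16.4), and its other probe sets were below background throughout. HOXD10 (17.7, 11.3, 4.83 and 15.2) and HOXD12 (3.83, 1.25, 8.08 and 21.7) stayed at or under background in every sample.

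Among HOX genes of the anterior and middle groups, HOXA3 read 118, 145, 83.2 and 227. After quantile normalization its TC+AC sample was higher at each stage (log2 differences 0.30 and 1.45). That E14 difference was 0.17 as deposited and -0.34 on hybridization controls. HOXA7 read 197, 222, 273 and 135. Its other probe sets disagreed at E14: one above background on all arrays gave 2.56 and another -1.50. The direction for HOXA7 is therefore unsettled. HOXD4 lay below background in TC at E12 and read 12.7, 28.4, 22.1 and 52.8. After quantile normalization that is at least 1.51-fold higher in TC+AC at E12 and 2.39-fold higher at E14. On the log2 scale the E14 difference was 1.26, against 0.17 as deposited and -0.35 on hybridization controls. A second HOXD4 probe set was below background throughout. HOXD8 (7.22, 17.9, 8.35 and 28.6) was above background in TC+AC at E14 alone, and HOXB5 (4.82, 19.8, 5.68 and 20.6) in TC+AC at E12 alone. HOXB2 had the opposite order, above background in both TC samples and neither TC+AC sample (25.9, 13.2, 31.2 and 7.93), and HOXB1 was just above background in TC at E14 alone.

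DLX5, a regulator of chondrocyte maturation and of osteoblasts, was the factor with the lowest fitted tissue difference. It read 947, 155, 471 and 269, so both TC samples were above both TC+AC samples. It was 6.09-fold lower in TC+AC at E12, while at E14 the log2 difference was -0.81 (fitted -1.71 ± 0.52 SE, limma adjusted p = 0.105). That E14 difference was -2.04 as deposited, -1.22 with arrays centred on their medians and -2.55 on hybridization controls. Under each of these DLX5 was at least 2-fold lower at both stages. Relative to the median gene, its E14 difference was -0.86 after quantile normalization and -0.96 under the others. The call came and went with the processing: the adjusted p was 0.0296 with arrays centred on their medians, and 0.0215 with the dimmest 60% left out. It was 0.0399 when the TC E14 array and the stage term were both left out, with 1 TC array whose spread was taken from the TC+AC pair, and 0.106 to 0.999 under the other alternatives run. A second DLX5 probe set was below background throughout, and the mean of both gave a fitted difference of -0.52. DLX6, the neighbour of DLX5 in the chicken genome, was detected in TC at E12 alone on its brightest probe set (122, 14.6, 10.6 and 18.1), at least 6.38-fold above TC+AC of that stage. DLX3 was likewise above background in TC at E12 alone (48.1, 1.90, 2.25 and 1.52). A second DLX6 probe set was below background on all arrays, and DLX1 was detected in TC at E14 alone.

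Markers of osteoblasts were read beside the DLX genes. The summed intensity of 6 osteoblast genes, SPP1 and IBSP among them, was 6201, 482, 1734 and 415, with 5 or 6 of the 6 above background on each array. Like DLX3, DLX5 and DLX6, the sum was highest in TC at E12. Of the 5 osteoblast genes tested, 3 were called lower in TC+AC (limma adjusted p under 0.05), against 0.73% of all tested genes. IBSP, IFITM5, RUNX2 and SPP1 were at least 2-fold lower in TC+AC at both stages. The remaining tested gene went the other way at E14, at least 2-fold higher in TC+AC. From E12 to E14 in TC+AC the sum was lower while DLX5 was higher after quantile normalization (log2 difference 0.79). That DLX5 change was -0.62 as deposited and -0.49 on hybridization controls. Of 9 epidermal markers, 6 to 8 were above background on an array, with sums of 720, 499, 314 and 674. Their part in the DLX values was not tested.

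The MSX genes, targets of BMP signalling, differed from the DLX genes. MSX2 read 27.6, 43.3, 20.03 and 138, and the TC+AC sample was higher at each stage. The E14 value was 6.87-fold above TC and the E12 value 1.57-fold (log2 difference 1.71 ± 0.53 SE, limma adjusted p = 0.107). The fitted difference was 0.81 on hybridization controls. In fits without 1 array and without the stage term it was 0.88 without TC+AC at E14, 2.55 without TC+AC at E12 and 1.95 without TC at E12, where the limma adjusted p was 0.0313 with 1 TC array left. The adjusted p was 0.108 to 0.999 under the other alternatives run. MSX1 read 122, 70.5, 75.4 and 139. After quantile normalization it was lower in TC+AC at E12 (-0.79 on the log2 scale) and higher at E14 (0.88). That E14 difference was 0.44 with arrays centred on their medians, -0.38 as deposited and -0.89 on hybridization controls. SHOX is needed in humans for growth of the forearm and lower leg. After quantile normalization it also had its highest value in TC+AC at E14 (34.3, 21.3, 26.5 and 55.8). The log2 difference of SHOX between TC+AC and TC at E14 was 1.07, against -0.03 as deposited and -0.55 on hybridization controls. Its second probe set lay below background throughout. As deposited, the array of TC+AC at E14 had a median intensity of 13.1, against 20.6 to 23.1 on the others, and a 3′ over 5′ ratio of beta-actin of 7.48 against 1.99 to 4.01 elsewhere. Its part in values that rest on this array was not tested.

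After quantile normalization, the 4 PRRX and TWIST genes shared a low value in TC at E14. PRRX1 read 486, 511, 143 and 423. PRRX2 read 129, 198, 40.2 and 158. TWIST1 read 440, 435, 132 and 362, and TWIST2 126, 162, 48.0 and 85.6. In each case the 3 other samples lay above TC at E14. Their tissue differences at E12 were small (0.07, 0.62, -0.02 and 0.36 on the log2 scale, in the order PRRX1, PRRX2, TWIST1 and TWIST2). At E14 they were 1.57, 1.98, 1.46 and 0.83, all from the same TC array. These E14 differences depended on the scaling. As deposited they were 0.29, 0.71, 0.19 and -0.38, and on hybridization controls -0.23, 0.19, -0.33 and -0.90. Relative to the median gene they were 1.51, 1.92, 1.41 and 0.78 after quantile normalization. Under the other scalings these relative values were 1.37, 1.79, 1.26 and 0.70. Of the other PRRX1 probe sets, one gave 1.93 at E14 and one was below background in TC at E14 alone (159, 217, 6.30 and 159). A further PRRX2 probe set was likewise below background in TC at E14 alone (51.8, 48.0, 3.98 and 57.9). For PRRX2 the fitted tissue difference was 1.30 ± 0.51 SE (limma adjusted p = 0.225). In a fit without the TC E12 array and without the stage term, the lone TC array was that of E14 and its spread was taken from the TC+AC pair. There PRRX1, PRRX2, TWIST1 and MSX2 were called higher in TC+AC, as were 561 of the 7805 genes tested (PRRX2 2.14, limma adjusted p = 0.00925). In the like fit without TC at E14 the PRRX2 difference was 0.46 (limma adjusted p = 0.999). The lowest of the 4 samples was TC at E14 for 11 of the 26 tested factors (42.3%) and for 38.6% of all tested genes.

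Lists of other cell types were read beside these mesenchymal genes. The 14 fibrous tissue and tendon genes were above background on every array, with sums of 37425, 40953, 37329 and 42852. Within this list, 5 of 14 genes were at least 2-fold higher in TC+AC at E14, and the tendon genes SCX and TNMD were so at both stages. SCX was called (limma adjusted p = 0.00464), at 101, 301, 35.5 and 497. TNMD read 686, 1756, 259 and 1317, so both were lowest in TC at E14. The list as a whole did not share this: its median change from E12 to E14 in TC was 0.17 on the log2 scale. SCX and TNMD were the 2 of the 14 that were at least 2-fold lower there. The 15 skeletal muscle genes found on the array summed to 1108, 891, 248 and 791, with 10, 12, 5 and 7 of them above background, so muscle genes too were lowest in TC at E14. The sum over leukocyte genes was 1297, 1314, 728 and 1622, over endothelial genes 913, 662, 459 and 672, and over erythroid genes 17840, 18908, 9225 and 18198. Nerve and Schwann genes summed to 154, 153, 105 and 241. The 14 cartilage genes summed to 21062, 17140, 68210 and 30620, highest in TC at E14. Their part in the PRRX and TWIST values was not tested.

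Within a stage there is no test and no replicate check. At E12, 4 of the 26 factors were at least 2-fold higher in TC+AC (HOXA11, PITX1, LHX8 and LHX9) and 1 was at least 2-fold lower (DLX5), against 4.46% and 3.28% of all tested genes. At E14, 9 were at least 2-fold higher (HOXA3, HOXA10-AS, HOXA11, HOXD11, MSX2, PRRX1, PRRX2, SHOX and TWIST1) and 2 lower (HOXA7 and PBX3), against 20.3% and 15.6%. The median log2 difference of the 26 was 0.32 at E12 and 0.71 at E14, beside 0.00 and 0.05 over all tested genes. The direction at E12 and E14 was the same for 14 of 26 factors (53.8%) and for 60.5% of all tested genes.

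**Figure D3:**
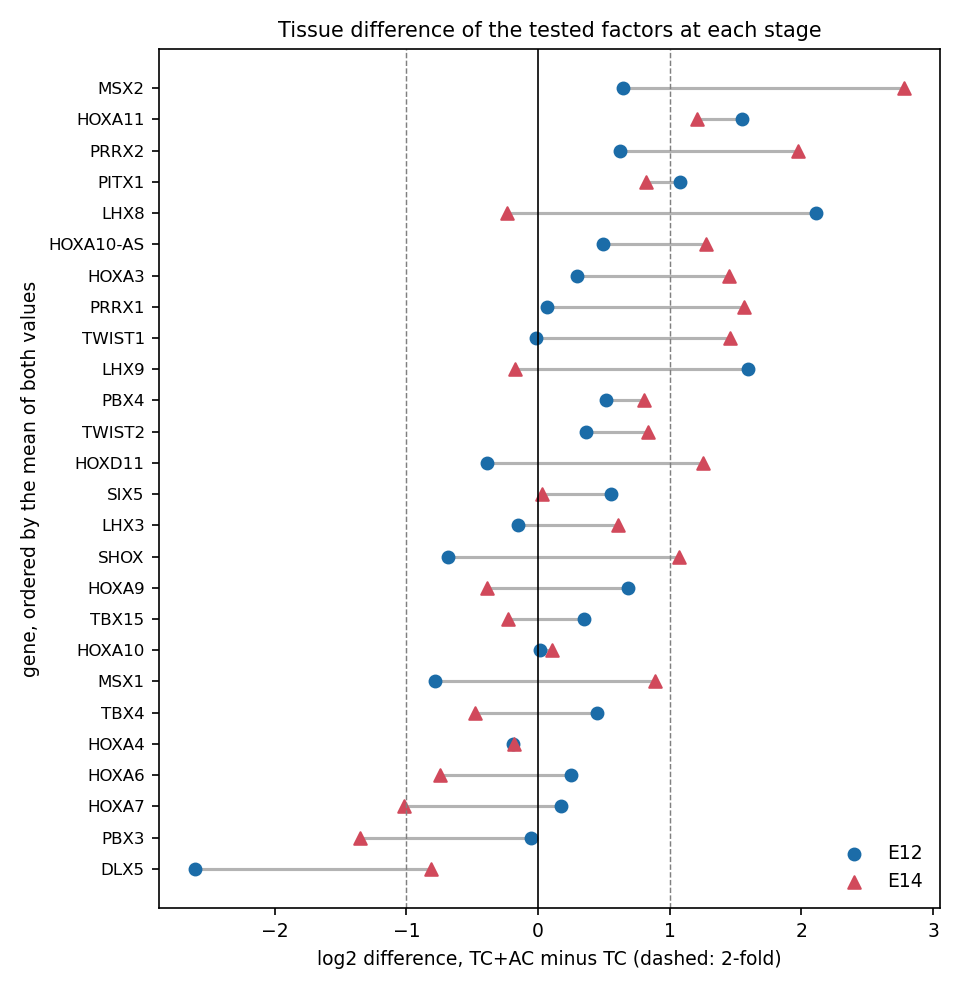
Log2 difference between TC+AC and TC (x axis) of the 26 tested factors (y axis) at E12 (circles) and E14 (triangles), with dashed lines at 2-fold; each point is 1 array minus 1 array. Values are after quantile normalization. HOXA11 is the 1 gene with both points beyond the same line, and DLX5 at E12 and MSX2 at E14 lie farthest from 0.

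The split at E14 depended on how the arrays were scaled. As deposited, 1 factor was at least 2-fold higher and 12 lower in TC+AC at E14, with all tested genes at a median of -1.08. Scaled on hybridization controls the numbers were 1 and 13 (median -1.59), and with arrays centred on their medians 4 and 4 (median -0.26). The E14 difference of HOXA11 was then -0.05, -0.56 and 0.77, and that of PITX1 -0.43, -0.95 and 0.38. Relative to the median gene, HOXA11 stood at 1.16 after quantile normalization and at 1.03 under each of the others, and PITX1 at 0.77 and 0.65. The fitted tissue difference was 0.86 as deposited and 0.48 on hybridization controls for HOXA11, and 0.44 and 0.06 for PITX1. At E12 the split was 4 and 1 under all 4 scalings. From E12 to E14 in TC+AC, 3 factors were at least 2-fold higher and 2 lower after quantile normalization, 0 and 16 as deposited, 0 and 15 on hybridization controls and 3 and 5 on medians. All tested genes there had medians of -0.05, -1.33, -1.20 and -0.54 in turn.

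The LIM-homeobox genes LHX8 and LHX9 accounted for 2 of the E12 differences. LHX8 read 29.1, 126, 80.8 and 68.7, and was 4.32-fold higher in TC+AC at E12 with a log2 difference of -0.23 at E14. LHX9, a gene of early limb bud mesenchyme, read 27.1, 82.0, 27.2 and 24.1, and was 3.02-fold higher in TC+AC at E12. A second LHX9 probe set gave 1.53 on the log2 scale at E12, and at E14 both were below background in TC+AC. Neither gene kept this order at E14. LHX3 read 34.5, 31.1, 35.6 and 54.3. LHX1 was above background in TC+AC at E12 alone, and LHX2, LHX5 and LHX6 on no array.

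Of the HOX partners, PBX3 read 281, 271, 335 and 131 and was 2.55-fold lower in TC+AC at E14. PBX4 read 64.4, 91.9, 42.3 and 73.8, higher in TC+AC at each stage after quantile normalization. Its log2 difference at E14 was 0.80, against -0.39 as deposited and -0.90 on hybridization controls. The 2 dimmer PBX4 probe sets were below background in TC+AC at E14. MEIS2 stayed close to background (20.4, 18.2, 21.6 and 25.2), and MEIS1 was above it in TC+AC at E12 alone.

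Among the 12 T-box genes, TBX15 and TBX4 were above background on all arrays. TBX15, which in mice is needed for skeletal growth, lay between 264 and 335 on its brightest probe set (264, 335, 331 and 282). Its other probe set, also above background on all arrays, read 22.3, 41.35, 55.95 and 53.95. From E12 to E14 that one changed by 1.33 in TC and 0.38 in TC+AC on the log2 scale. The hindlimb gene TBX4 had tissue differences of 0.45 and -0.48 on the log2 scale. TBX1 was above background in both TC+AC samples and neither TC sample (6.75, 28.8, 4.72 and 61.1), by at least 1.53-fold (E12) and 3.93-fold (E14). TBX19 was below background in TC at E14 alone (26.2, 25.3, 3.42 and 44.7). TBX18 and TBX2 were above background on 2 arrays and 1 array, and TBX3, TBX5, TBX6, TBX10, TBX20 and TBX22 on none. SIX5 read 111, 164, 150 and 153. SIX3 was above background in TC+AC at E12 alone, and IRX1 in TC+AC at E14 alone. The brightest IRX5 probe set was above background in TC at E12 alone (24.1), and the other one in TC+AC at E14 alone (31.6). ALX1 was above background in both TC samples (19.95 and 49.0) and neither TC+AC sample. SIX6, PITX3, ALX4 and IRX2 were detected on no array.

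For the change from E12 to E14, 0 of the 26 factors were called higher and 0 lower at an adjusted p of 0.05 (limma), against 0.141% and 0.115% of all tested genes. At an unadjusted p under 0.05 there were 3 of 26, HOXA4, HOXA6 and TWIST2, where 6.91% of all tested genes were under it, and adjusted p ran from 0.285 to 0.994. By size, 1 factor was at least 2-fold higher at E14 in both tissues and 0 were lower in both, against 0.897% and 1.49%.

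That gene was HOXA4, which read 58.7 and 51.5 at E12 and 172 and 152 at E14, so both E14 values were above both E12 values. It was 2.93-fold higher in TC and 2.95-fold in TC+AC (log2 difference 1.55 ± 0.50 SE, limma adjusted p = 0.285), with a single probe set. HOXA6 read 215, 255, 792 and 473. Its differences after quantile normalization were 1.88 in TC and 0.89 in TC+AC (fitted 1.38 ± 0.50 SE, limma adjusted p = 0.423). The TC+AC difference of HOXA6 was -0.55 as deposited and -0.41 on hybridization controls. A dimmer probe set gave 0.34 and 0.67. HOXA9 had 1.28 and 0.21 on the log2 scale, and 0.61 and 0.31 on its other probe set. On the brightest one the TC+AC difference was -1.09 as deposited and -0.96 on hybridization controls. HOXA5, untested, was below background at E12 in both tissues. After quantile normalization the neighbours did not all share a higher value at E14. HOXA3 had -0.50 and 0.65, HOXA7 0.47 and -0.72, HOXA10 -0.11 and -0.02 and HOXA11 0.27 and -0.07. HOXC11 was at least 1.10-fold higher at E14 in TC and 2.43-fold higher in TC+AC after quantile normalization. On the log2 scale this TC+AC change was 1.28, against 0.06 as deposited and 0.19 on hybridization controls. The second HOXC11 probe set, at 32.5 and 31.2 in TC+AC, gave -0.06 there. Relative to the median gene, HOXA4 stood at 1.68 in TC and 1.61 in TC+AC after quantile normalization and at 1.70 and 1.57 under the other scalings. Its own difference in TC+AC was 0.24 as deposited and 0.37 on hybridization controls, under 2-fold.

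In TC, 4 of the 26 were at least 2-fold higher at E14 (HOXA4, HOXA6, HOXA9 and LHX8) and 6 at least 2-fold lower (DLX5, HOXD11, PRRX1, PRRX2, TWIST1 and TWIST2), against 8.30% and 14.1% of all tested genes. PRRX1 was 3.40-fold, TWIST1 3.35-fold, PRRX2 3.20-fold and TWIST2 2.62-fold lower. These are the TC E14 values described above, seen from the other side. As deposited, these genes were beyond 2-fold lower in TC+AC too. In the same order their log2 differences there were -1.72, -1.70, -1.72 and -2.25, with all tested genes at a median of -1.33. In TC+AC after quantile normalization, 3 of the 26 were at least 2-fold higher (HOXA4, MSX2 and SHOX) and 2 lower (LHX9 and PBX3), against 4.71% and 7.92%. TWIST2 had -1.39 in TC and -0.92 in TC+AC (fitted -1.15 ± 0.50 SE, limma adjusted p = 0.614). IRX4, too dim for the test, read 52.0, 33.9, 23.4 and 15.5, with other probe sets that disagreed. HOXB3 was above background in both E12 samples (31.3 and 23.9) and neither E14 sample. DLX5 went from 947 to 471 in TC and from 155 to 269 in TC+AC.

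**Figure D4:**
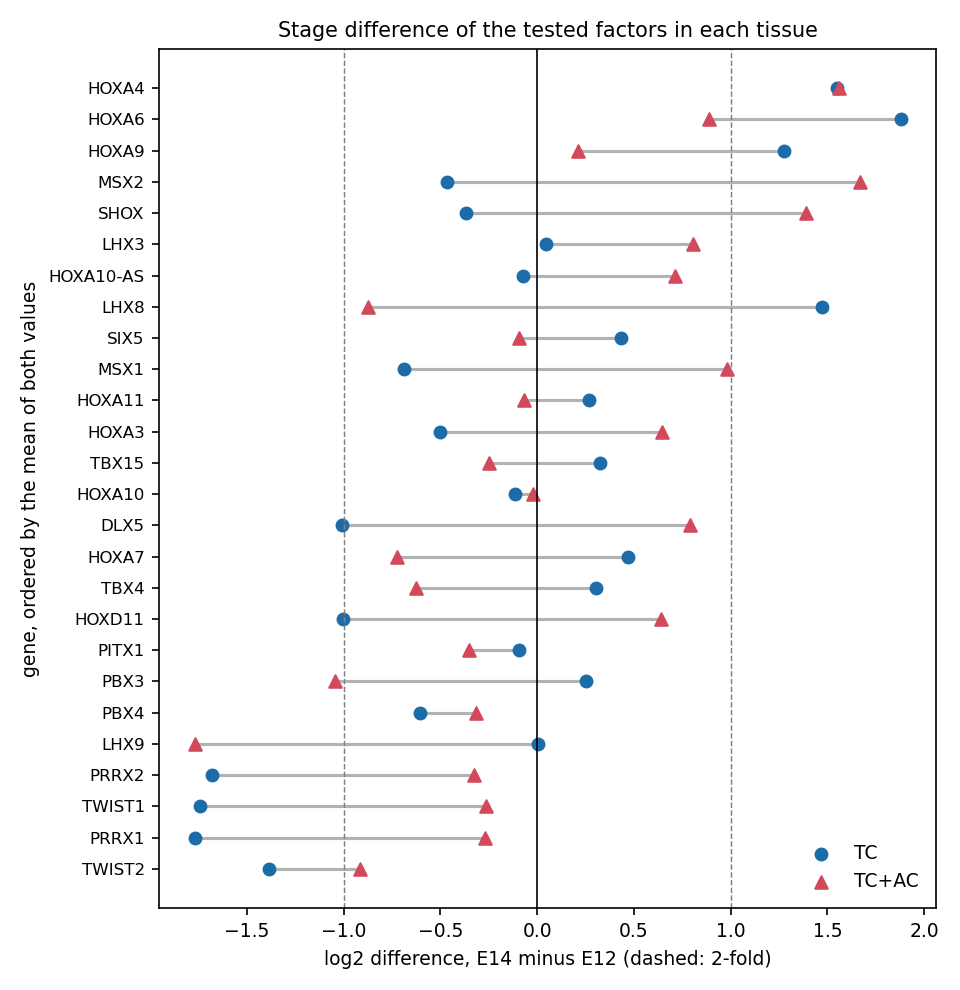
Log2 difference between E14 and E12 (x axis) of the 26 tested factors (y axis) in TC (circles) and TC+AC (triangles), with dashed lines at 2-fold; each point is 1 array minus 1 array. Values are after quantile normalization. HOXA4 is the 1 gene with both points beyond the same line. With this scaling PRRX1, PRRX2, TWIST1 and TWIST2 lie beyond 2-fold on the lower side in TC alone.

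Other limb patterning genes were read from a list of 63 signals, receptors and transcription factors, of which 57 were on the array and 31 were tested. None was called for tissue or stage (0 in either direction, limma). After quantile normalization, 4 of the 31 were at least 2-fold higher in TC+AC at both stages, and 3 at least 2-fold lower at both. The shares of all tested genes were the 2.49% and 1.40% given above. The median E14 difference of all tested genes was 0.05 there, against -1.08 as deposited and -1.59 on hybridization controls. Values of these listed genes under the other scalings are not given here. The 4 were CYP26B1, which breaks down retinoic acid (log2 differences 1.004 and 1.74), and the transcription factor genes MEOX2 (1.24 and 1.21), PAX9 (2.08 and 1.37) and NKX3-2 (1.37 and 1.32), the last a regulator that holds back chondrocyte maturation. The 3 were PTCH1, the hedgehog receptor gene (-1.76 and -1.11), BMP7 (-1.23 and -1.85) and WNT5A (-2.33 and -1.32, limma adjusted p = 0.0647). The hedgehog ligand gene SHH was above background on 2 arrays, and FGF4, FGF8, HAND1 and HAND2, genes of the early limb bud, on none.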

How the data were processed

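The deposited values are linear intensities, 1 per probe set and array, made by the authors in a way not given in the sources used here. Control probe sets (96) were dropped, the other 38439 quantile normalized, floored at the 20th percentile (4.275) and converted to log2. Platform annotation gave 1 symbol to 27178 probe sets, several to 177 and none to 11180. The brightest probe set stood for each of 13009 genes, the dimmest 40% were left out, and 7805 were fitted with limma 3.58.1 in R 4.3.3 (tissue and stage additive, 1 residual and 27.0 prior degrees of freedom), with Benjamini-Hochberg adjustment at 0.05. The fit was also run on data simulated from its own prior with known tissue differences, which does not check real arrays without replicates.

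Differences within a stage or tissue are 1 array against 1 array. "At least" folds use the background of that array in place of the dim value. Members and lists were chosen with earlier results of these data known. Values on all arrays were to be given for factors called or 2-fold in both stages or tissues, PITX1, TBX4, TBX5, posterior HOXA and HOXD genes and the 10 brightest; others shown were chosen after their values were seen. The array number, 4, limits precision. Alternatives covered scaling, dim filter, probe set choice, model, floor and each array left out (with 1 factor).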

Additional observations from a re-analysis of the deposited data

How the results depend on the processing

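With no normalization 32 genes were called for tissue and 0 for stage, against 115 and 20 as reported. Scaling on hybridization controls gave 26 and 0, median centring 68 for stage, no dim filter 0 and 0 (715 and 567 at an unadjusted p under 0.05, limma), the dimmest 60% left out 217 and 32, averaging all probe sets of a gene 29 and 1, and 1 factor in the model 12 and 0. Leaving out 1 array was run with 1 factor in the model, so array and model changed together and 1 arm held a lone array assumed to vary like the other arm. It gave 0 to 883 for tissue (883 without TC E12, 65 without TC E14 and 0 without either TC+AC array) and 0 to 1 for stage. Of the factors, 1 was called for tissue (DLX5) with median centring and with the dimmest 60% left out, and 0 to 4 in these fits (4 without TC E12, 1 without TC E14). No factor was called for stage under any of these. Factors 2-fold at both stages went from 1 to 10 with no dim filter and to 0 with the mean of probe sets. As deposited, with median centring and on hybridization controls the number was 1 too. There the factor was DLX5, lower in TC+AC, in place of HOXA11. Factors 2-fold in both tissues went from 1 to 4 as deposited, 2 with median centring and 3 on hybridization controls. As deposited they were PRRX1, PRRX2, TWIST1 and TWIST2, all lower at E14, in place of HOXA4, which was higher. On hybridization controls they were PRRX1, PRRX2 and TWIST1, all lower, again without HOXA4. With median centring they were HOXA4, higher, and TWIST2, lower. The number of factors 2-fold in both tissues went to 5 with no dim filter and 2 with the mean. Factors 2-fold apart at E12 went from 5 to 27 with no dim filter, 3 with the dimmest 60% left out and 1 with the mean. With no dim filter they went from 11 to 35 at E14 and from 10 to 26 in TC. In TC+AC they went from 5 to 16 as deposited, 8 with median centring, 15 on hybridization controls, 26 with no dim filter and 2 with the dimmest 60% left out. The causes were not tested.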
